A study of Homo sapiens with 12 samples.

Results

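The 57 genes described here encode homeodomain transcription factors that lie outside the HOX clusters and the PAX family. A gene belonged to the set if at least 5 CpGs were measured for each mark within its hg38 span plus 1500 bp on each side, and 57 of 57 listed genes met this. In all, 18322 of 20033 protein-coding genes met it. The genes fall into 13 subfamilies by homeodomain relationship. The cells were SV-HUC-1, a human urothelial epithelial line immortalised with SV40, a single line, so all groups share that viral transformation. Cells received DCBQ (2,6-dichloro-1,4-benzoquinone, a halobenzoquinone that forms during drinking-water disinfection) or blank solution, and both groups were harvested after 3 days. The labels give no DCBQ concentration. RRBS (reduced representation bisulfite sequencing, which samples CpG-rich DNA) and its oxidative form were each run on 3 samples per treatment, in 12 libraries and 4 groups of 3. Nothing in the labels says that replicates were grown separately, so a p-value here reflects only how far these samples scatter, and that scatter may be technical.

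A homeodomain is a helical fold that binds short AT-rich DNA, and these factors assign position and cell type in the embryo. Most of them are silent in an adult epithelium such as the urothelium, where their CpG-rich promoters are typically held by Polycomb complexes without DNA methylation. Promoters of this kind often gain 5-methylcytosine (5mC) in immortalised and tumour cells. TET enzymes oxidise 5mC to 5-hydroxymethylcytosine (5hmC), which is usually scarce in cultured lines.

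There were 3689712 CpGs with 5mC values and 3534314 with 5hmC values. Samples correlated with each other at 0.968 to 0.972 across CpGs for 5mC but only at 0.197 to 0.231 for 5hmC, and no pair of columns was identical. Mean 5mC over all CpGs was 54.448% to 54.72% in controls and 54.058% to 54.239% after DCBQ, so the DCBQ samples sat lower as a whole. Mean 5hmC was 3.31% to 3.437% and 3.336% to 3.617%. At the 13206 CpGs of these genes that both tables held, 5hmC as used here was 0 for 49.6% to 51.5% of CpGs per sample. Where 5mC was 0, 5hmC was above 0 at 25.8% to 31.9% of CpGs, and both levels summed to over 100% at 1.48% to 2.49%. The series text ties the 5mC table to RRBS and the 5hmC table to oxidative RRBS. By its chemistry, standard bisulfite sequencing reads 5mC and 5hmC as one, the oxidative form reads 5mC, and a 5hmC level is usually the difference between both. The sources used here do not give how the authors computed either table, so a value called 5mC may include 5hmC. Both tables may also share readings. Opposite moves of the marks in the same gene or window are therefore not 2 independent observations, and an exchange between the marks was not tested. For both marks any value below 0 was set to 0 before use, and values were otherwise taken as deposited. How many values this changed was not counted. The depth behind each CpG is unknown. Against the labelled cell type, the start windows of 14 measured urothelial marker genes of 19 listed had a median control 5mC of 7.91%. Of these 14, 3 were at 50% or more. All genes had a median of 4.82%, so low 5mC did not set these markers apart from other genes. The start windows of 4 of 8 leukocyte and endothelial markers had a median of 83.52%, and those of 2 of 7 fibroblast markers 65.42%.

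Levels are means over measured CpGs, in percent. The start window ran from 1500 bp before to 500 bp after the most upstream transcription start that RefSeq lists (GRCh38.p14), and the gene body from there to the other gene end. A start was listed for 38 of the 57 genes. For the other 19 (ALX1, ALX4, BARX1, BARX2, DLX3, DLX4, DLX5, EMX1, EN1, IRX3, IRX5, IRX6, LHX1, LHX5, NKX2-5, NKX6-2, PDX1, SIX3 and VAX2) the same window was laid at the gene end with more measured CpGs, called the CpG-dense end. Among 36 homeobox genes with a listed start and a measured end, the dense end was the true start in 29 (80.6%), against 87.6% over 13408 genes, so a dense end can be the 3′ end. LHX8, which patterns the ventral forebrain, had no measured CpG in its start window. This leaves 56 start windows and 57 bodies.

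The 250 bases before the start of 6 genes are printed first, because they span the range of promoter methylation in this set and include both listed starts with an unadjusted p under 0.05 for 5mC. Sequences are from RefSeq (GRCh38.p14), read 5′ to 3′ on the strand of the gene, and capitals mark the CpGs that the 5mC table measured. MSX1 (plus strand, chr4:4859415-4859664) and IRX2 (minus strand, chr5:2751678-2751927) are at the unmethylated end. LHX3 (minus strand, chr9:136205129-136205378) and NKX2-3 (plus strand, chr10:99532692-99532941) are among the most methylated. EMX2 (plus strand, chr10:117542496-117542745) and IRX1 (plus strand, chr5:3595582-3595831) are the starts with that unadjusted p for 5mC.
MSX1: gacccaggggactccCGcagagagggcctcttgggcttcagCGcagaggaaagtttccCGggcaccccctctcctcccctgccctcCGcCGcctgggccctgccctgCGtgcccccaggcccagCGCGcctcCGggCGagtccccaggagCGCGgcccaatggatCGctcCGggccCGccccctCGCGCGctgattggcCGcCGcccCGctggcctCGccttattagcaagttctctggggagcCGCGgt
IRX2: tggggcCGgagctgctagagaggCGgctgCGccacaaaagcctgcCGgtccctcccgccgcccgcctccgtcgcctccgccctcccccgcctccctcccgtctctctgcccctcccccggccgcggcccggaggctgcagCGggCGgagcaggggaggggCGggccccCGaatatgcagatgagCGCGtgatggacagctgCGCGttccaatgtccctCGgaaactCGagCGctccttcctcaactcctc
LHX3: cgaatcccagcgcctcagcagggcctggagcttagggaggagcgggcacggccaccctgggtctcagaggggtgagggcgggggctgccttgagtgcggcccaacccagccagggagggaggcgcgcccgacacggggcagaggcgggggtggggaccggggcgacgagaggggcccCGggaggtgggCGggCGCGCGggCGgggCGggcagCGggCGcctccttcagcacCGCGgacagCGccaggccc
NKX2-3: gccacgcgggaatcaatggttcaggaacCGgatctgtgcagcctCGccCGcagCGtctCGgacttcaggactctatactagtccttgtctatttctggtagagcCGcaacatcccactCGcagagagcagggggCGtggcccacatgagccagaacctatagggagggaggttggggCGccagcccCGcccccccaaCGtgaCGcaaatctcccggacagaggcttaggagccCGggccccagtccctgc
EMX2: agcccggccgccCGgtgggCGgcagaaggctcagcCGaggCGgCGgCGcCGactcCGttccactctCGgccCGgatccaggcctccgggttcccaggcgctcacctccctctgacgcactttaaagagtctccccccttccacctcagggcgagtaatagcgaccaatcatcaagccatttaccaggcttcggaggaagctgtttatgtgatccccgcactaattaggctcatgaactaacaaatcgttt
IRX1: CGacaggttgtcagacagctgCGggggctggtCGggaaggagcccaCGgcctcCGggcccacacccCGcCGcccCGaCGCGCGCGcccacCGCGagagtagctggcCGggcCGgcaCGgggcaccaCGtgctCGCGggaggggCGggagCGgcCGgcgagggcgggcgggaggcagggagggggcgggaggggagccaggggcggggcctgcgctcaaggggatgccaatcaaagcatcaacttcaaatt

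These 250-base promoters were dense in CpGs whatever their methylation. MSX1 had 24 CpGs there, all 24 measured, at 0.87% ± 0.13 5mC in controls (SD, n = 3) and 0.82% ± 0.32 after DCBQ. IRX2 read 1.03% ± 0.41 and 1.23% ± 0.22 over 15 measured of 27 CpGs. LHX3 held almost as many CpGs, 26, yet read 48.09% ± 2.23 and 47.8% ± 1.19 over the 12 that were measured. NKX2-3, with 16 CpGs and 13 measured, was the most methylated of the 6 at 72.03% ± 0.95 and 71.52% ± 1.97. EMX2 read 3.92% ± 0.76 and 2.39% ± 0.63 over 10 of 20 CpGs, and IRX1 7.87% ± 1.44 and 8.84% ± 1.32 over 23 of 29. In 38 promoters of this set the median was 23.5 CpGs and 67.8% GC, against 17 CpGs and 62% GC over 15841 promoters. The motif CCGG, which reads the same on both strands and is the MspI cut site on which RRBS relies, was present in 33 of the 38 (86.8%) and in 70.6% of all promoters of that length. This is a description of the letters in these windows.

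Around the listed starts, 5mC of the homeobox genes formed a wide trough. In the 250 bases before the start, the mean over genes was 7.34% ± 0.18 in controls and 6.84% ± 0.13 after DCBQ (SD, n = 3; 30 genes with measured CpGs), against 10.43% ± 0.07 and 10.3% ± 0.08 over all genes. In controls, levels climbed to 65.93% ± 0.87 at 1250 to 1500 bp before the start (14 genes) and 64.35% ± 0.72 at 2000 to 2250 bp past it (20 genes). Farther upstream the homeobox mean fell again, to 41.45% ± 1.57 at 2750 to 3000 bp before the start (14 genes). All genes read 68.82% ± 0.31 there. The 5hmC trough was shallower, with 1.84% ± 0.29 in the 250 bases before the start and 4.1% ± 0.37 at 2000 to 2250 bp past it. For 5mC the treatments stayed close, but the bins on both sides of the start did not overlap: the 250 bases before it read 7.43%, 7.45% and 7.14% in controls and 6.88%, 6.95% and 6.69% after DCBQ, and the 250 bases after it 11.03%, 10.53% and 10.45%, then 10.08%, 10.44% and 10.29%. These were 2 of 24 bins, both lower after DCBQ, whereas over all genes 21 of 24 bins were lower without overlap. No test was made on the bins.

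**Figure D1:**
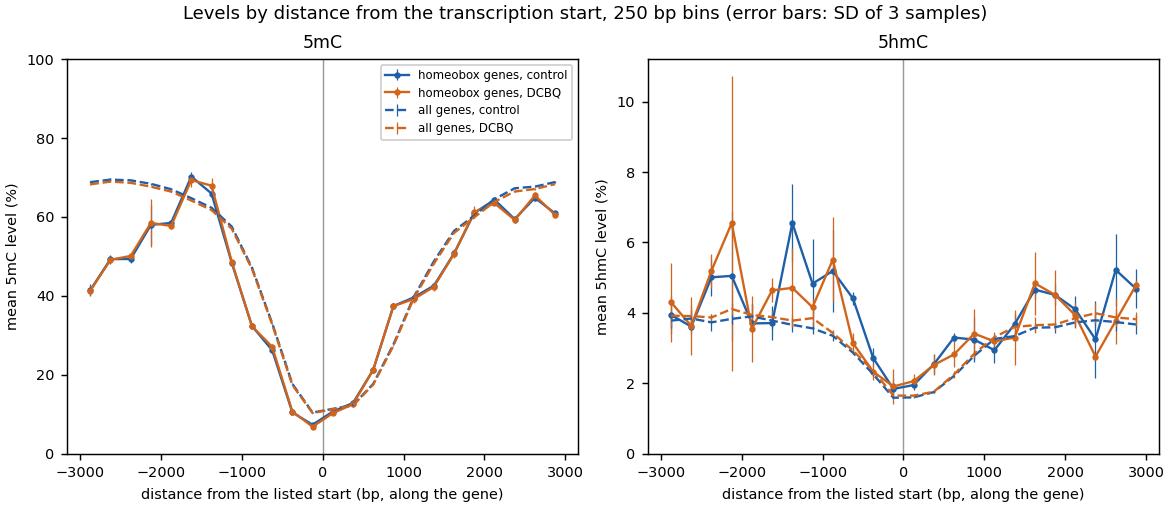
Mean 5mC (left) and 5hmC (right), in percent, against distance from the listed transcription start in bins of 250 bp, for homeobox genes (solid) and all protein-coding genes (dashed), control in blue and DCBQ in orange, with error bars of 1 SD over 3 samples. For 5mC the homeobox curves run close together, from 7.34% in controls and 6.84% after DCBQ just before the start to 64.35% and 63.47% at 2000 to 2250 bp past it, whereas the 5hmC curves are noisier.

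In control cells the start windows of these genes spread from unmethylated to almost fully methylated, though the highest lay at dense ends. The median start window read 13.41% 5mC, above the 4.82% of all 15403 start windows tested and below the 30.33% of 38 HOX genes and the 45.33% of 8 PAX genes, while 82 other homeobox genes had a median of 17.62%. The 37 measured listed starts had a median of 10.76%, against 3.73% over 12205 listed starts of all genes. The 19 dense ends had a median of 19.97%. Of 56 start windows, 24 (42.9%) were under 10%, 27 (48.2%) were between 10% and 50% and 5 were at 50% or more. Over all genes 60.5% were under 10%, 22.8% between and 16.7% at 50% or more. The 5 highest were SIX3 (92.81%), NKX2-5 (87.2%), NKX2-3 (72.42%), LHX3 (56.25%) and NKX2-8 (54.95%). SIX3 rests on 6 CpGs at its dense end. NKX2-5 is a dense end too, so the highest listed start was that of NKX2-3. The lowest were DLX2 (0.81%), LHX1 (1.23%), MSX1 (1.25%) and IRX2 (1.28%).

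Gene bodies carried more methylation than starts, but less than bodies of other genes. The median body read 48.32%, against 72.23% over all 16554 bodies, 45.28% in HOX genes and 49.98% in PAX genes. In 45 of 56 homeobox genes (80.4%) the body exceeded the start, against 87.3% over all genes. The 11 that did not were DLX3, DLX6, SIX3, LHX3, LHX5, NKX2-3, NKX2-5, NKX2-8, GSX1, ALX1 and HMX3. Of 4046 CpGs in the start windows, 68.4% were under 10%, 24.6% between 10% and 80% and 7.1% at 80% or more. Of 8326 CpGs in bodies those shares were 24.9%, 39.2% and 35.9%.

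5hmC was low throughout. The median was 2.74% at starts (1.18% over all genes) and 3.71% in bodies (3.23% over all genes), and the highest body, BARHL2, read 9.01% on 10 CpGs. Across the 56 start windows, which share libraries and CpGs, levels of 5mC and 5hmC had a Spearman rho of 0.63, and across the 57 bodies -0.1. Starts with little 5mC thus tended to have little 5hmC, as in IRX5 (1.67% and 0.71%) and DLX2 (0.81% and 0.73%), while ALX1 (45.06% and 6.26%) had more of both. Exceptions went both ways. SIX3 (92.81% and 1.84%) and GSC (31.43% and 1.85%) had little 5hmC, and GSX2 (6.5% and 3.38%) and EMX2 (6.8% and 3.07%) were above the median 5hmC.

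**Figure D2:**
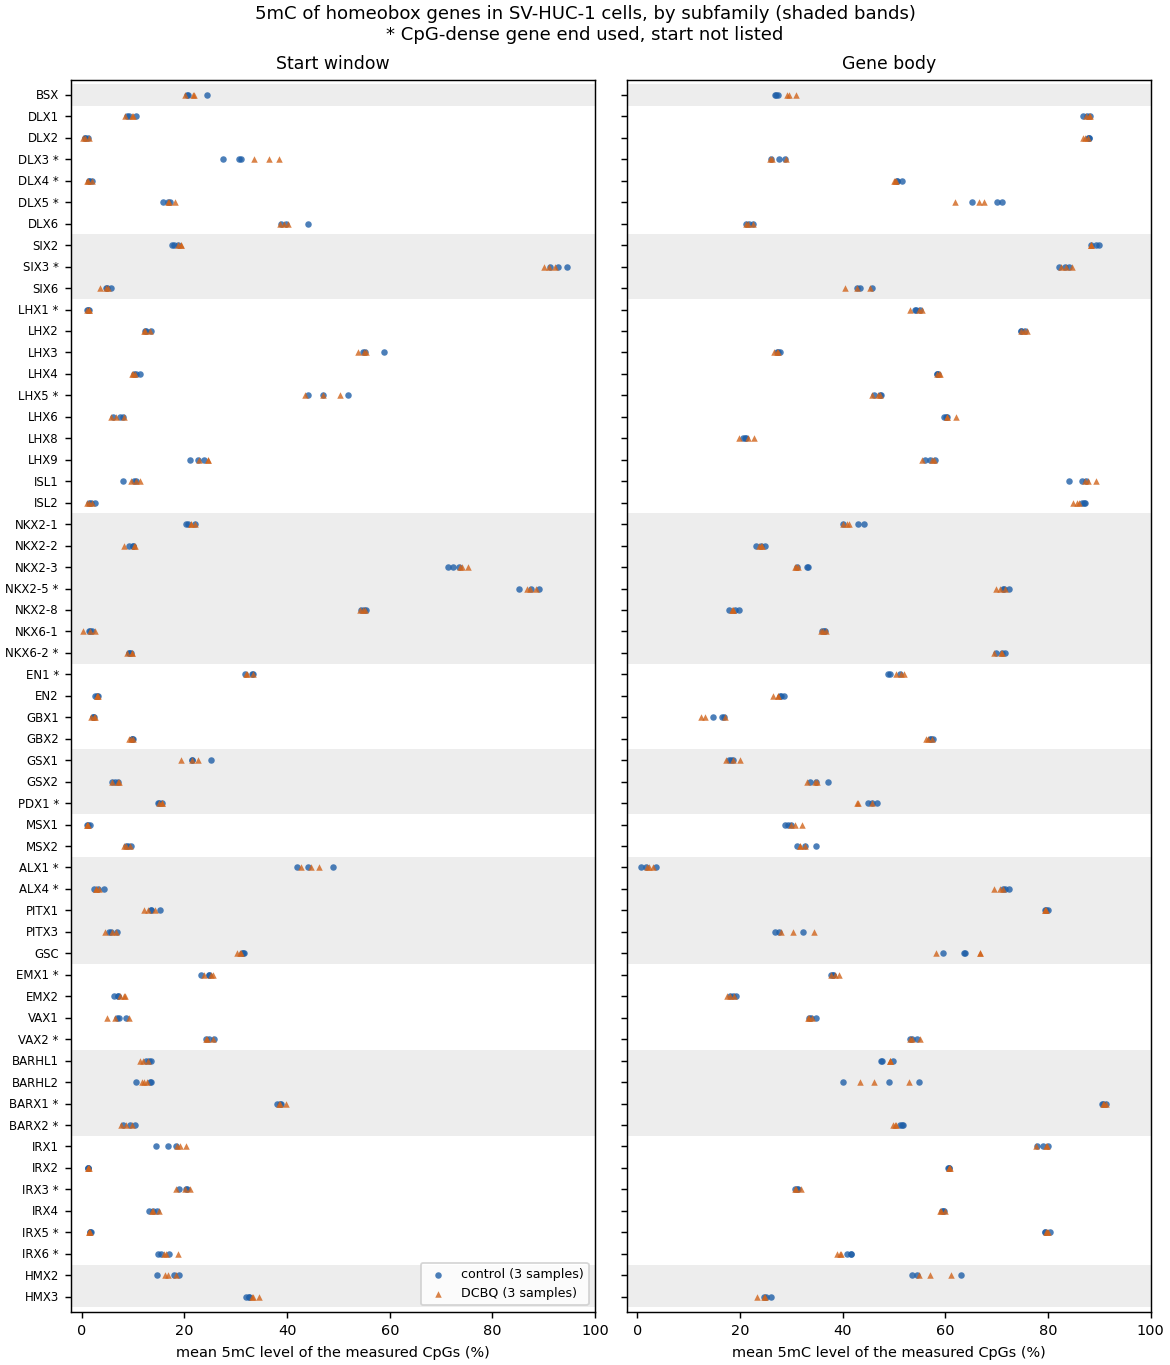
Mean 5mC (percent) of the start window (left) and gene body (right) of each homeobox gene, 1 point per sample, control as blue circles and DCBQ as orange triangles, with subfamilies in alternating bands. Genes marked with an asterisk have no listed start and show the CpG-dense end; points of both treatments lie close together at nearly every gene, and DLX3 at its dense end, between 27.56% and 30.97% in controls and between 33.52% and 38.47% after DCBQ, is the widest gap between treatments at a start.

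Subfamilies did not behave as units, since most held both an unmethylated and a partly methylated start. In each, the genes with the lowest and the highest control start are given in all samples, in the order control 1 to 3 and DCBQ 1 to 3.

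BSX, a hypothalamic factor involved in feeding and the only gene of its subfamily, read 24.34%, 20.54% and 20.76% in controls and 20.18%, 21.63% and 21.78% after DCBQ at its start. The DLX genes, which lie as neighbours on chromosomes 2, 7 and 17 and pattern jaw, limb and forebrain interneurons, ran from DLX2 to DLX6. DLX2 read 1.16%, 0.7% and 0.56% in controls and 0.28%, 0.72% and 1.36% after DCBQ. DLX6 read 38.87%, 44.07% and 39.83%, then 39.37%, 38.58% and 40.12%, in a window that overlaps the antisense gene DLX6-AS1. The groups overlapped at all of these starts. Among SIX2, SIX3 and SIX6, factors of kidney, forebrain and eye development, SIX6 was lowest with 4.77%, 4.84% and 5.61% in controls and 4.75%, 5.12% and 3.47% after DCBQ. SIX3 was highest with 92.7%, 91.17% and 94.55%, then 90.93%, 90.05% and 92.25%, and again the groups overlapped.

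The LIM homeobox genes, whose LIM domains recruit cofactors in neural, pituitary and islet development, spanned from LHX1 to LHX3. LHX1, a kidney and head organiser factor, read 1.15%, 1.12% and 1.42% in controls and 1.34%, 1.44% and 0.99% after DCBQ. LHX3, required for the pituitary, read 58.88%, 54.73% and 55.13%, then 55.46%, 54.95% and 53.74%, and its window also overlaps QSOX2. In the NKX subfamily, the neural and beta-cell factor NKX6-1 was lowest on 8 CpGs, with 1.99%, 1.59% and 1.42% in controls and 0.24%, 1.56% and 2.68% after DCBQ. The cardiac factor NKX2-5 was highest, with 87.42%, 85.18% and 88.99%, then 86.8%, 87.23% and 88.52%. No separation of treatments was visible in any of these 4 genes.

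EN and GBX genes position the midbrain and hindbrain. GBX1 read 2.24%, 2.29% and 2.31% in controls and 2.5%, 2.4% and 1.74% after DCBQ, and EN1 31.83%, 33.16% and 33.44%, then 32.17%, 32.01% and 33.31%. Both pairs of groups overlapped. Among GSX and PDX1, which act in the ventral forebrain and the pancreas, GSX2 read 5.87%, 6.49% and 7.13%, then 7.01%, 7.21% and 5.86%. GSX1 read 21.4%, 21.5% and 25.15%, then 21.41%, 19.39% and 22.66%. The MSX genes of teeth, skull and limb were both low: MSX1 read 1.05%, 1.14% and 1.55%, then 1.08%, 0.97% and 1.23%, and MSX2 9.58%, 8.54% and 9.1%, then 8.15%, 9.45% and 8.57%. Here too every gene had overlapping groups.

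The paired-like genes ALX, PITX and GSC act in the face, hindlimb, lens and gastrula organiser. ALX4 read 4.41%, 2.45% and 3.2% in controls and 3.33%, 2.78% and 2.73% after DCBQ, and ALX1 49.03%, 42.01% and 44.15%, then 44.65%, 46.29% and 42.62%. ALX1 also had the lowest body of the set, 2.03% ± 1.48 on 16 CpGs, so its dense end and body stood in the reverse of the usual order. EMX2, a cortex and urogenital factor, was lowest among EMX and VAX genes (values below), and VAX2, of the ventral retina, was highest with 24.72%, 24.25% and 25.71%, then 25.61%, 24.15% and 24.49%. BARX2, active in muscle and epithelia, read 9.36%, 10.35% and 8.1%, then 7.58%, 8.63% and 9.82%. BARX1, a stomach factor, read 38.81%, 38.13% and 38.68%, then 39.79%, 38.68% and 38.49%. All of these groups overlapped.

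The IRX genes, in clusters on chromosomes 5 and 16, pattern heart, neural tube and limb. IRX2 was tightly unmethylated, with 1.32%, 1.24% and 1.28% in controls and 1.23%, 1.48% and 1.16% after DCBQ over 123 CpGs. IRX3 read 19.01%, 20.3% and 20.59%, then 18.32%, 20.12% and 21.18%, and the groups overlapped at both. HMX2 and HMX3, neighbours on chromosome 10 that act in the inner ear, closed the range. HMX2 read 14.58%, 18.03% and 18.92%, then 18.29%, 16.22% and 16.77%. HMX3 read 32.65%, 32.64% and 32.09%, then 33.36%, 34.53% and 33.1%, so its DCBQ samples lay above its controls by 1.2 percentage points (limma adjusted p = 0.835).

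No start window or body of these genes passed the threshold for a difference between treatments. limma was fitted to all start windows or bodies with at least 5 CpGs, and p-values were adjusted over all of them (threshold 0.05). For 5mC at starts, 0 of 56 homeobox genes passed, as did 0.0% of 15403 start windows. At an unadjusted p under 0.05 there were 3, DLX3, EMX2 and IRX1, all higher after DCBQ, against 6.65% of all start windows (697 lower, 327 higher). Groups did not overlap in 6, with GSC lower and DLX3, NKX2-3, EMX2, IRX1 and HMX3 higher, against 11.9% over all genes (1256 lower, 576 higher). Direction leaned low, with 35 lower and 21 higher, a median difference of -0.15 percentage points, and -0.1 over all genes. With each sample centred on its own mean, 26 were lower and 30 higher; over all genes 59.7% were lower before centring and 42.3% after. With a window of 2000 bp on each side, the 2 homeobox genes at an unadjusted p under 0.05 were lower and none was higher. Of all 16369 such windows, 795 were lower and 340 higher at that p. Groups did not overlap in 2 lower and 1 higher homeobox gene, against 1475 and 585 of all windows.

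DLX3, a factor of epidermis, placenta and bone, had the largest difference at a start. Its dense end (chr17:49994724-49996724, 26 CpGs) read 27.56%, 30.97% and 30.63% in controls and 38.47%, 36.48% and 33.52% after DCBQ. Every DCBQ sample was above every control. The difference was 6.44 percentage points (SE 1.53; limma adjusted p = 0.616). Of its 26 CpGs, 20 lay in 1 tile at chr17:49995001-49996000, which read 38.02% ± 2.63 and 46.85% ± 3.06, whereas with a window of 2000 bp on each side of that end the difference was 0.93. Its body read 27.47% ± 1.31 and 27% ± 1.76, and the groups overlapped.

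EMX2 at its start (63 CpGs) read 6.23%, 7.04% and 7.14% in controls and 8.31%, 8.35% and 7.51% after DCBQ. The groups did not overlap, and the difference was 1.26 percentage points (SE 0.4; limma adjusted p = 0.684). The direction depended on the window: it was -1.31 with 500 bp on each side and -0.1 with 2000 bp. In the 250 bases printed above the DCBQ mean was also the lower one. The window overlaps EMX2OS, a non-coding gene in the opposite direction, so the CpGs belong to both.

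IRX1 at its start (169 CpGs) read 18.34%, 16.89% and 14.52% in controls and 18.56%, 20.41% and 19.09% after DCBQ. The highest control and the lowest DCBQ sample nearly met. The difference was 2.77 percentage points (SE 1.05; limma adjusted p = 0.731), and without control 3 it was 1.74. The lower side was weaker. BARHL1, an inner ear and cerebellar factor, read 13.45%, 12.49% and 13.03%, then 11.45%, 11.93% and 12.91% (limma adjusted p = 0.835). LHX4, of the pituitary, read 10.58%, 11.44% and 10.25%, then 9.85%, 10.01% and 10.44% (limma adjusted p = 0.861). SIX3, given above, was the next by p (limma adjusted p = 0.861).

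**Figure D3:**
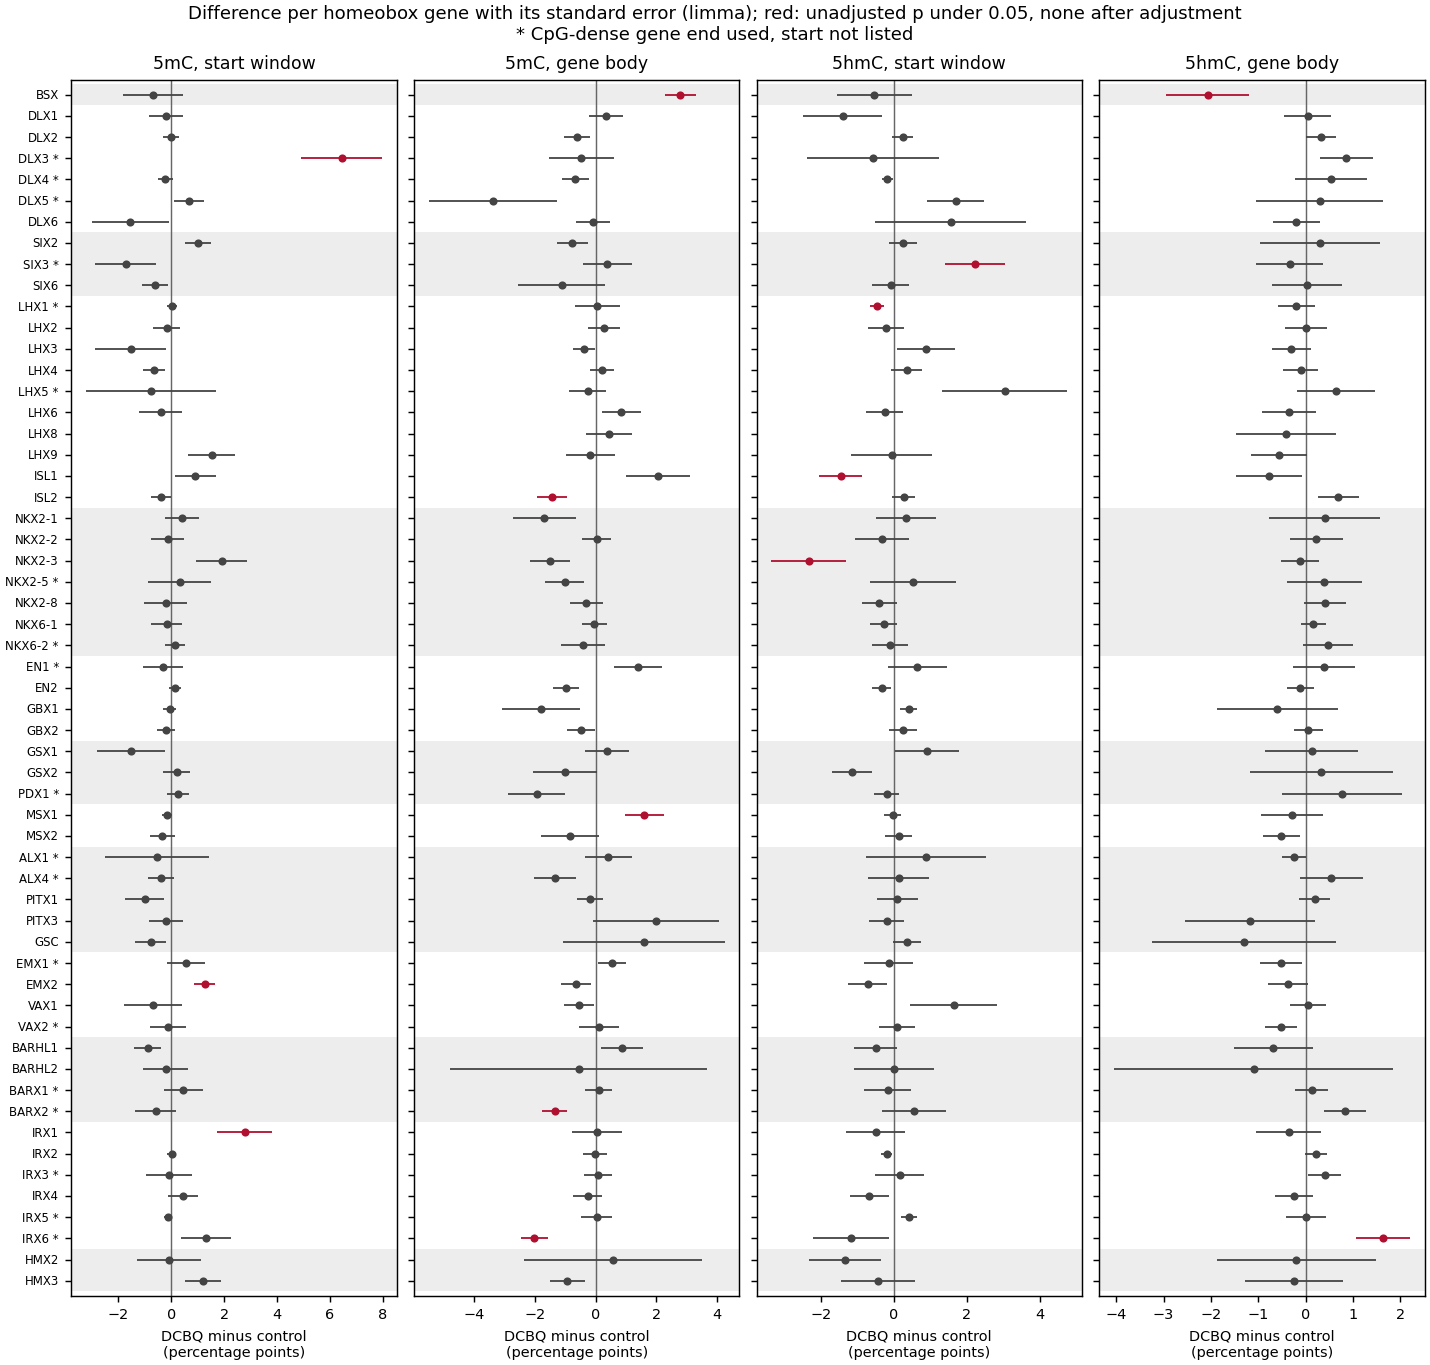
DCBQ minus control in percentage points for each homeobox gene, with its limma standard error as a bar, in 4 panels for 5mC and 5hmC at the start window and in the body; red marks an unadjusted p under 0.05, and no gene passed after adjustment. Most points lie within a few standard errors of 0, with DLX3 at 6.44 farthest out for 5mC at starts. In bodies, DLX5 at -3.37 is farthest out for 5mC, ahead of BSX at 2.78, and BSX at -2.07 for 5hmC.

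In gene bodies, 0 of 57 homeobox genes passed for 5mC, as did 0.0% of 16554 bodies. Unadjusted p was under 0.05 for 5, namely IRX6, BARX2 and ISL2 (lower) and BSX and MSX1 (higher), against 8.59% of all bodies (1162 lower, 260 higher). Groups did not overlap in 8, against 15.9% of all bodies (2263 lower, 368 higher). The 8 were DLX2, DLX4, ISL2, EN2, BARX2 and IRX6 (lower) and BSX and MSX1 (higher). Lower and higher members numbered 33 and 24, with a median difference of -0.19 percentage points against -0.39 over all genes, of which 69.6% were lower. Centring the samples turned this to 23 lower and 34 higher, against 47.5% lower over all genes. With centring, groups did not overlap in 3 lower and 7 higher homeobox genes, against 928 lower and 1138 higher of all 16554 bodies. An unadjusted p was under 0.05 for 1 lower and 3 higher, against 515 and 568 of all bodies. Among the means of body 5mC of the 13 subfamilies, that of DLX did not overlap between treatments (57.84%, 57.57% and 56.77%, then 56.38%, 56.63% and 56.73%). The same held for NKX (42.87%, 42.28% and 41.99%, then 41.5%, 41.64% and 41.87%). In both the DCBQ samples were lower, but the lowest control nearly met the highest DCBQ sample, and 69.6% of all bodies were lower. DLX5 had the largest DLX difference, -3.37 percentage points, with overlapping groups. BSX, a subfamily of 1 gene, was higher without overlap and is given below. Members of a subfamily share their libraries, so no test was made over them.

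BSX had the smallest p among the bodies. It read 27.01%, 26.83% and 27.42% in controls and 30.82%, 29.2% and 29.58% after DCBQ over 62 CpGs, so the groups stood apart. The difference was 2.78 percentage points (SE 0.51; limma adjusted p = 0.455). It lay at the 3′ end: the tile at chr11:122977001-122978000, with 31 CpGs, read 19.21%, 19.85% and 20.04%, then 27.65%, 24.37% and 23.9% (limma adjusted p = 0.716). The start of BSX, at the other end of the gene, read 21.88% ± 2.13 and 21.19% ± 0.89. BSX is transcribed from the minus strand, and the end of this gene with more measured CpGs is its 3′ end. For 5hmC, the body of BSX read 6.2%, 7.28% and 5.72% in controls and 3.58%, 3.76% and 5.65% after DCBQ. That is a difference of -2.07 percentage points (SE 0.87; limma adjusted p = 0.931), with DCBQ 3 only just below the lowest control.

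IRX6, whose known role is in retinal bipolar cells, had the smallest p among lower bodies. Its 49 CpGs read 41.63%, 41.65% and 40.79% in controls and 39.65%, 38.88% and 39.52% after DCBQ. The groups did not overlap, and the difference was -2.01 percentage points (SE 0.44; limma adjusted p = 0.495). Its tile at chr16:55325001-55326000 read 53.13% ± 2.68 and 45.02% ± 1.4 over 9 CpGs. 5hmC in the same body read 3.17%, 2.52% and 3.34%, then 4.38%, 5.57% and 3.98%. DCBQ samples were all higher, by 1.63 (SE 0.57; limma adjusted p = 0.931).

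BARX2 in its body read 51.1%, 51.66% and 51.64% in controls and 50.38%, 49.8% and 50.15% after DCBQ, a narrow spread within each group (difference -1.35, SE 0.41; limma adjusted p = 0.557). Its 5hmC read 3.1%, 2.91% and 2.22%, then 3.41%, 4.13% and 3.19% (limma adjusted p = 0.965). The BARX2 tile with the smallest p for 5mC was chr11:129423001-129424000, where 6 CpGs read 49.73%, 58.77% and 55.3%, then 42.83%, 41.95% and 42.97% for 5mC (limma adjusted p = 0.719). The same tile read 2.94%, 4.5% and 1.39%, then 5.8%, 8.25% and 6.85% for 5hmC (limma adjusted p = 0.973). ISL2, a motor neuron factor, had a highly methylated body with 87.07%, 87.19% and 86.6%, then 85.97%, 85.7% and 84.9% (difference -1.43, SE 0.49; limma adjusted p = 0.572). Its 5hmC read 3.02%, 2.93% and 3.13%, then 3.38%, 3.45% and 4.33% (limma adjusted p = 0.967). The treatments did not overlap for either mark in the ISL2 body.

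On the higher side, MSX1 in its body read 29.34%, 29.85% and 28.78% in controls and 32.08%, 30.8% and 29.88% after DCBQ. The lowest DCBQ sample was just above the highest control (difference 1.6, SE 0.65; limma adjusted p = 0.581). ISL1, an islet, heart and motor neuron factor, read 86.53%, 87.48% and 84.08%, then 87.11%, 89.32% and 87.81%, and its groups overlapped (limma adjusted p = 0.633).

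**Figure D4:**
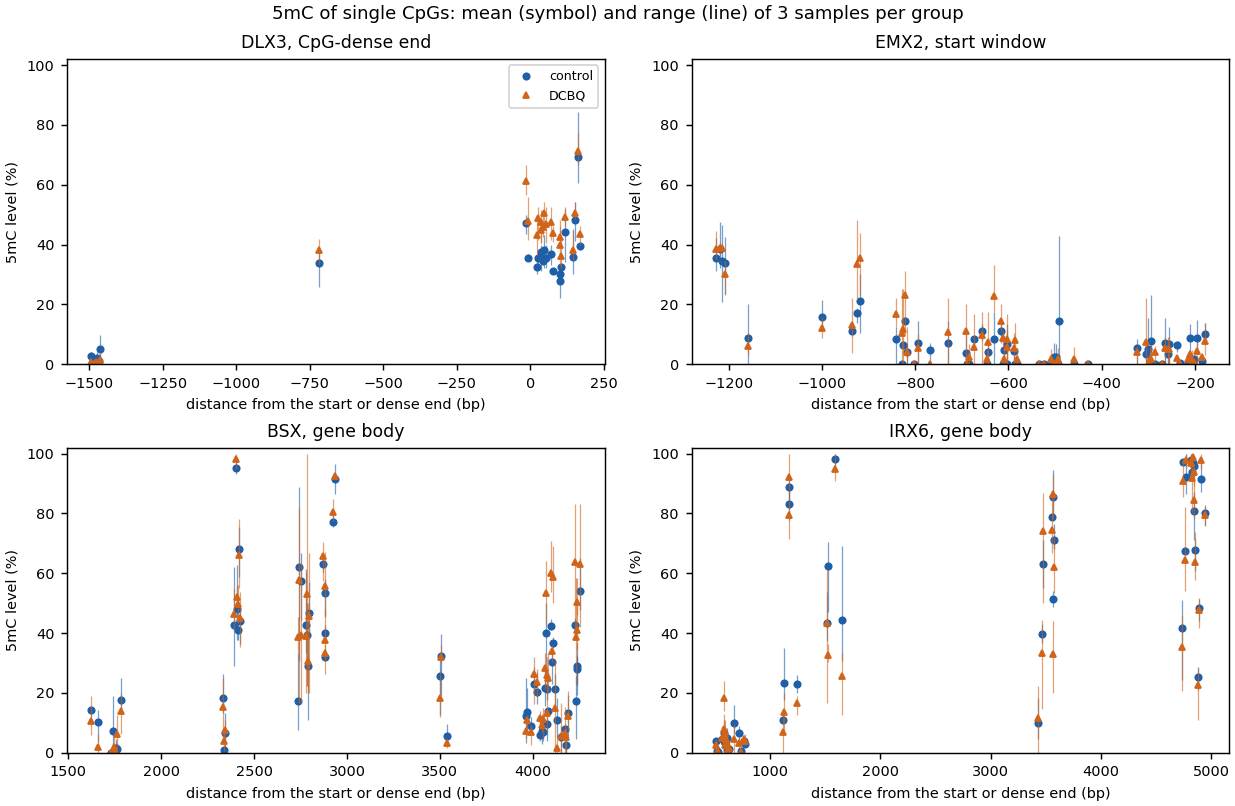
5mC (percent) of single CpGs against distance in bp from the start or dense end, for DLX3 and EMX2 start windows and BSX and IRX6 bodies; symbols are means and lines the range of 3 samples per treatment, control in blue and DCBQ in orange. In DLX3 most CpGs sit within 200 bp inside the gene end with the DCBQ mean above the control mean, while in BSX many CpGs near the 3′ end have a higher DCBQ mean.

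For 5hmC at starts, 0 of 56 homeobox genes passed and 0.0% of 15291 start windows did. Unadjusted p was under 0.05 for 4, against 4.87% over all genes (296 lower, 449 higher): ISL1, LHX1 and NKX2-3 were lower and SIX3 was higher. Groups did not overlap in 11 (7 lower, 4 higher), against 9.93% over all genes (651 lower, 868 higher). In all, 31 were lower and 25 higher, and the median difference was -0.08 percentage points against 0.03 over all genes, of which 45.9% were lower. This lean turned with the window: with 500 bp on each side 27 were lower and 28 higher, and with 2000 bp 25 were lower and 32 higher, with a median of 0.12. With samples centred, 55.4% of the homeobox genes and 54.4% of all genes were lower. ISL1 read 3.52%, 4.09% and 2.54% in controls and 1.34%, 2.04% and 2.37% after DCBQ (difference -1.46, SE 0.6; limma adjusted p = 0.957). LHX1 read 1.09%, 1.05% and 1%, then 0.72%, 0.28% and 0.77% (difference -0.46, SE 0.2; limma adjusted p = 0.957). In both genes all DCBQ samples were below all controls, at levels of a few percent or less.

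NKX2-3, a factor of gut and spleen, read 5.87%, 6.35% and 5.64% in controls and 3.82%, 2.71% and 4.31% after DCBQ for 5hmC at its methylated start, so the groups were well apart (difference -2.34, SE 1.02; limma adjusted p = 0.957). Its 5mC there read 72.41%, 71.29% and 73.57%, then 75.16%, 74.07% and 73.75% (difference 1.9, SE 0.97; limma adjusted p = 0.801). Within that window, the tile at chr10:99532001-99533000 read 7.04%, 6.57% and 8.49%, then 2.96%, 1.29% and 5.24% for 5hmC over 17 CpGs (limma adjusted p = 0.973). SIX3, on 6 CpGs, read 1.9%, 2.19% and 1.43%, then 4.25%, 5.58% and 2.38% (difference 2.23, SE 0.83; limma adjusted p = 0.957), and with 2000 bp on each side the difference was -0.53. DLX5 at its dense end read 0.94%, 1.36% and 2.14%, then 2.29%, 4.98% and 2.26% (limma adjusted p = 0.957). IRX5 read 0.73%, 0.56% and 0.84%, then 0.97%, 1.11% and 1.33% (limma adjusted p = 0.957), and neither gene had overlapping groups.

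For 5hmC in bodies, 0 of 57 homeobox genes passed and 0.0% of 16416 bodies did. BSX (lower) and IRX6 (higher), described above, were the 2 with an unadjusted p under 0.05, against 5.36% over all genes (317 lower, 563 higher). Groups did not overlap in 6 (2 lower, 4 higher), against 9.92% over all genes (581 lower, 1047 higher). Lower and higher members numbered 27 and 30, or 33 and 24 with samples centred. Over all genes 43.6% were lower before centring and 51.8% after, so the background turned as well. VAX2 read 2.56%, 2.72% and 2.91% in controls and 2.21%, 2.6% and 1.81% after DCBQ (limma adjusted p = 0.971), and MSX2 3.21%, 2.46% and 2.36%, then 2.41%, 1.64% and 2.41% (limma adjusted p = 0.987). These groups overlapped.

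Tiles of 1 kb were then tested as smaller units inside and beside the genes. Of 362 tiles in these genes, 0 passed for 5mC (0.0% of 210465 tiles). An unadjusted p was under 0.05 for 17, 12 lower and 5 higher, against 6.2% of all tiles (9410 lower, 3637 higher). For 5hmC 0 passed (0.0% of 201935 tiles) and 8 were under 0.05, 5 lower and 3 higher, against 4.83% (4198 lower, 5550 higher). Lower tiles numbered 225 for 5mC (62.2%, against 59.9% of all tiles) and 173 for 5hmC (47.8%, against 47.2%), which is near the background for both marks. In simulated 5mC data, 100 of 210465 tiles were shifted by 5 percentage points and 100 by 10, all at intermediate levels. After adjustment 0% of them passed. So 0 passing 5mC tiles cannot show that differences of those sizes are absent when few tiles change. Larger or widespread differences, and differences at low levels, were not simulated.

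Beside those given above, ALX4 held a nearly unmethylated tile that was lower after DCBQ. At chr11:44310001-44311000 its 22 CpGs read 3.34%, 3.5% and 3.08% in controls and 2.01%, 0.65% and 1.95% after DCBQ (limma adjusted p = 0.73). GBX2 had a methylated tile beyond its 3′ end, chr2:236160001-236161000, with 84.88%, 79.08% and 79%, then 85.56%, 89.14% and 89.4% on 5 CpGs (limma adjusted p = 0.734). In both genes these groups did not overlap. The DLX3 tile described above read 34.98%, 39.7% and 39.36%, then 49.64%, 47.33% and 43.58% (limma adjusted p = 0.73). The IRX6 tile read 56.21%, 51.32% and 51.86%, then 45.34%, 46.22% and 43.49% (limma adjusted p = 0.73). Here too the treatments stood apart.

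Among 5hmC tiles, the smallest p was in BARX2 at chr11:129376001-129377000, where 5 CpGs read 1.17%, 1.1% and 0.75% in controls and 0 in all DCBQ samples (limma adjusted p = 0.973). A tile past the end of SIX6, chr14:60514001-60515000, read 2.01%, 1.24% and 0.96%, then 0.38%, 0.43% and 0.78%. LHX4 at chr1:180271001-180272000 read 2.42%, 3.92% and 0.8%, then 5.39%, 9.61% and 5.28% on 5 CpGs. None of these 3 tiles had overlapping groups, all have few or sparse levels, and the adjusted p from limma was 0.973 for each. DLX5 at chr7:97024001-97025000 read 0.39%, 0.58% and 1.81%, then 2.47%, 6.51% and 2.23% with the same adjusted p.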

How the data were processed

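5mC and 5hmC of single CpGs were read from SV-HUC-1 cells after DCBQ or blank solution, with 3 samples per treatment and mark. The authors' deposited values are a fraction per CpG, given here as percent, in one table per mark. Any negative fraction was handled as stated above. BSMAP 2.90, Trim Galore, cutadapt and the build hg38 are named in the submitters' processing notes, without settings. Per the file names, CpGs had at least 5 reads and strands were merged, but no depth is listed, so no interval from counts is given. Per the series text, RRBS gave 5mC and oxidative RRBS gave 5hmC, so each table's columns were assigned to those libraries by condition and number; the sources used here do not give how the authors computed each level or whether 5hmC was subtracted. No column belonged to another sample.

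CpG levels were averaged per start window, gene body and 1 kb tile (at least 5 CpGs) and compared with limma 3.58.1 in R 4.3.3 (lmFit, eBayes with a mean-variance trend, untransformed level), with Benjamini-Hochberg adjustment over all protein-coding genes or tiles and a threshold of 0.05. The fit was tested on simulated data, where no added difference passed in 5mC tiles and a minority of the smaller ones did at starts. Other values used Python 3.11.15, numpy 2.4.6 and pandas 2.3.3, and plots matplotlib 3.10.9. Members and lists were chosen with earlier results of these data known. Named in every sample are, per mark and region, the 3 lower and 3 higher genes or tiles with the smallest p, and the lowest and highest control start of each subfamily. Alternatives were other CpG minimums and windows, a logit2 level (offset 0.01), no trend, centred samples, CpGs of both tables only, a replicate block and leaving out each replicate.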

Additional observations from a re-analysis of the deposited data

How the results depend on the processing

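No homeobox gene or tile passed an adjusted p of 0.05 under any alternative run. For 36 named genes and tiles, 429 of 434 alternative values kept their direction, and their adjusted p in limma ranged from 0.405 to 1. The 5 reversals came from the window: EMX2 for 5mC was -1.31 with 500 bp on each side and -0.1 with 2000 bp, LHX4 was 0.00 with 500 bp, and SIX3 with 2000 bp was 0.68 for 5mC and -0.53 for 5hmC. The number of homeobox genes at an unadjusted p under 0.05 for 5mC at starts was 7 without the variance trend and 1 with 500 bp, against 3. For 5hmC at starts it was 1 with 2000 bp, against 4, and for 5hmC in bodies 1 with no minimum of CpGs, against 2. Over all genes the same 4 settings gave 1024 of 15403, 894 of 14534, 818 of 16261 and 901 of 17456, in that order. The causes were not tested.

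Leaving out each replicate gave 2 to 3 such genes for 5mC at starts, 3 (without control 2) to 8 (without control 3) for 5mC in bodies, 0 (without control 1) to 4 for 5hmC at starts and 0 to 2 for 5hmC in bodies. For 5hmC at starts the number was 1 without control 2, control 3, DCBQ 1 or DCBQ 2. For 5hmC in bodies it was 0 without control 1, control 2 or DCBQ 2 and 1 without control 3 or DCBQ 1. Tiles numbered 15 to 21 for 5mC and 5 (without DCBQ 2) to 10 for 5hmC. Over all genes the numbers for 5mC were 941 to 1015 of 15403 starts and 1065 to 1382 of 16554 bodies. For 5hmC they were 673 to 781 of 15291 starts and 771 to 930 of 16416 bodies. All tiles gave 11959 to 13646 of 210465 for 5mC and 9022 to 10402 of 201935 for 5hmC. Counts of lower homeobox genes were 28 to 33 and 32 to 36 for 5mC at starts and in bodies, 28 to 32 and 24 to 32 for 5hmC.

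Same-numbered samples did not visibly deviate together (correlations -0.0466 to 0.016 over genes). This cannot tell whether they were prepared as pairs, which the labels do not say. With the replicate number as a block, 1 homeobox gene for 5hmC at starts and 0 for 5hmC in bodies had an unadjusted p under 0.05. For 5mC 3 and 4 did. Over all genes the block gave 733 of 15291 and 819 of 16416 for 5hmC, and 1000 of 15403 and 1271 of 16554 for 5mC. With 3 samples per group and unknown depth, small differences at starts and in bodies can be missed. In 5mC tiles differences of 5 or 10 percentage points can be missed too, since none simulated in a few tiles passed there.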

Other observations

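The following values were chosen after they were seen and carry no test except where a limma p is given. In the bin from 750 to 500 bp before the listed start, mean 5hmC over 25 homeobox genes (298 CpGs) read 4.24%, 4.61% and 4.39% in controls and 2.94%, 3.01% and 3.47% after DCBQ, so the groups did not overlap. Over all genes the same bin read 2.92%, 2.81% and 2.88%, then 2.98%, 2.86% and 2.95%. 5mC of the homeobox genes in that bin read 26.24% ± 0.72 in controls and 27.1% ± 0.6 after DCBQ (SD, n = 3). Of 24 bins of 5hmC over the homeobox genes, 2 were lower and 1 higher without overlap, against 0 lower and 2 higher over all genes.

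HMX2, an inner ear factor, had lower 5mC after DCBQ in the window across its 3′ end, from 500 bp inside the gene to 1500 bp beyond. The window at that end (chr10:123150172-123152172, 76 CpGs) read 85.82%, 80.73% and 84.31% 5mC in controls and 75.93%, 71.45% and 79.78% after DCBQ, while its start read 17.18% ± 2.29 and 17.1% ± 1.07. 5hmC in the same end window had the higher mean after DCBQ, with 3.52%, 9.72% and 3.48% in controls and 11.03%, 14.18% and 6.21% after DCBQ, and those groups overlapped. The tile inside that window, chr10:123151001-123152000 (50 CpGs), was tested for 5hmC and did not pass (limma adjusted p = 0.973). In GSX1, a forebrain progenitor factor, the window at the 3′ end read 53.23%, 53.47% and 48.04%, then 47.62%, 47.85% and 45.39% for 5mC. Its 5hmC there read 2.32%, 2.32% and 6.35%, then 4.57%, 2.48% and 8.01%, and overlapped. DCBQ samples were below all controls for 5mC in both genes.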
